A study of Mus musculus with 2 samples.

Results

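The genes described here are 48 mouse enzymes of amino acid catabolism, methionine metabolism and the urea cycle, measured in embryonic liver. They were named as a set by their GENCODE M21 symbols. All 48 were found among 55536 genes in both libraries. The study sequenced polyA RNA from whole livers of healthy B6NCrl mouse embryos at 12.5 days of gestation, and the labels name no treatment and no altered allele. There was a single group of 2 libraries, which the labels call biological replicates 1 and 2. Replicate 1 pooled the livers of 120 embryos and replicate 2 those of 88, male and female together. The input was 10 ng of RNA a library, with ERCC control transcripts added, and cDNA was primed with oligo-dT and cut by Nextera tagmentation. With 1 group there was no contrast between conditions, so the values below are levels, and the error is the spread between the pools.

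The urea cycle turns ammonia and aspartate nitrogen into urea through steps in the mitochondrion and then the cytosol, and in adults it runs almost wholly in the liver. Amino acid catabolism feeds it: aminotransferases collect nitrogen, dedicated chains of enzymes open the carbon skeletons, and several first steps, such as those of tyrosine and tryptophan, are textbook hormone-regulated liver enzymes that become prominent around birth. Methionine is activated to S-adenosylmethionine by one isozyme in adult hepatocytes and by another in growing and fetal cells. The liver at this stage also makes blood, so red cell precursors share the tissue with hepatoblasts, the immature cells that give rise to hepatocytes and bile duct cells.

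The summed expected counts of genes were 37190042 in replicate 1 and 34291772 in replicate 2, and spike-ins took 4.99% and 5.40% of the TPM, a share of transcripts that is corrected for their length. All 12 hepatoblast markers checked reached 10 TPM, with Afp at 5250 and 5065 TPM. All 12 red cell markers did too, and Hba-a2 alone had 102198 and 103099 TPM. Of 12 macrophage markers 11 reached 1 TPM in both libraries, and of 10 gut and kidney markers 1 did, Lgr5, at 3.26 and 2.23 TPM. All 7 megakaryocyte markers reached 10 TPM in both libraries. So did 9 of 12 granulocyte and mast cell markers and 5 of 10 endothelium and mesenchyme markers. Prg2, of the granulocyte list, had 23.2 TPM in replicate 1 and 66.1 in replicate 2. In such bulk RNA, fewer cells of a type and less RNA per cell cannot be told apart, and the part of each cell type in a level was not tested.

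Of the 48 genes, 40 reached 1 TPM in both libraries, which is 83.3%, against 53.5% of 22028 protein-coding genes. A level of 10 TPM was reached by 24 (50%, against 31.5%), and 100 TPM by 4 (8.33%, against 5.30%). The 4 were Mat2a, Got2, Glud1 and Pcbd1. The median over the 48 was 12.9 TPM in replicate 1 and 11.7 in replicate 2, or 12.2 ± 0.852 (SD, n = 2), and over protein-coding genes it was 1.82 ± 0.0177. Together the 48 held 1454 ± 39.6 TPM, or 0.153% of the TPM of all genes. This sum was uneven: Mat2a alone made up 18.4% of it, the 5 highest genes 51.9% and the 10 highest 74.2%. The 8 genes under 1 TPM were Sdsl, Kynu, Mat1a, Tdo2, Tat, Cps1, Arg2 and Sds.

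**Figure D1:**
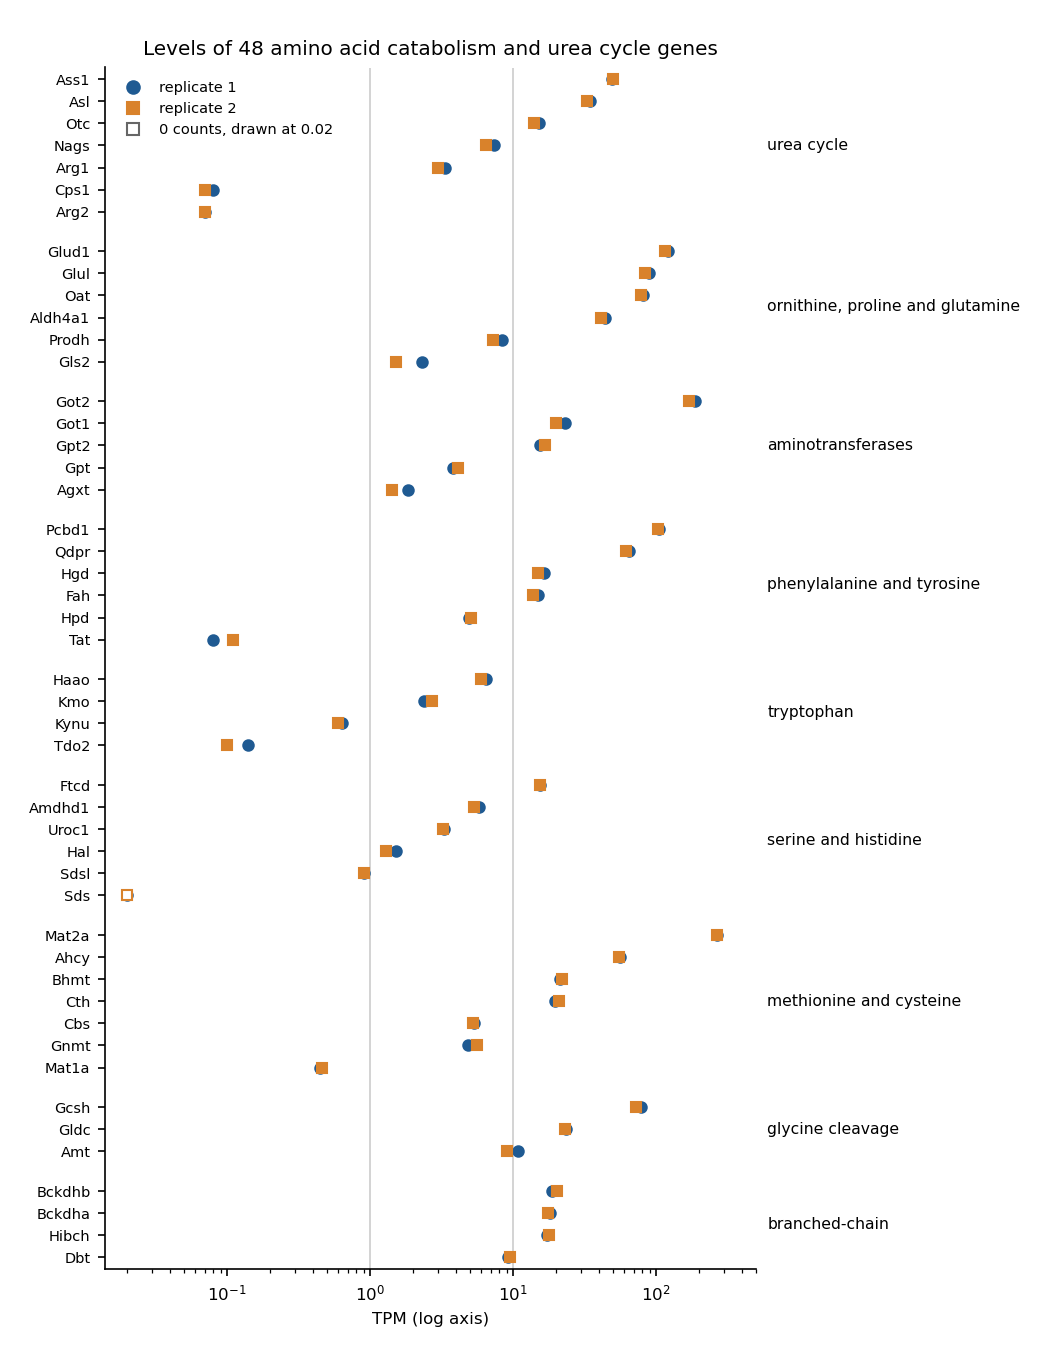
Each point is the level of 1 gene in 1 library in TPM on a log axis, with genes grouped by pathway and replicate 1 and replicate 2 in different symbols; the vertical lines stand at 1 and 10 TPM. The 2 symbols of a gene lie close together for most genes, while several groups, such as the urea cycle, tyrosine and methionine genes, hold both levels under 1 TPM and levels above 10 TPM.

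When the 48 genes were placed in order of mean level, 28 of the 47 neighbouring pairs had library values that did not overlap, and 19 pairs could not be ordered beyond the spread of the pools. The stretch from Bhmt to Bckdhb and the stretch from Amdhd1 to Hpd were such ties. The grouping by cell compartment, taken from general knowledge of the enzymes, gave a median of 16.1 ± 0.940 TPM over 19 mitochondrial enzymes and 5.66 ± 0.127 TPM over 27 cytosolic ones. Of the mitochondrial enzymes 11 reached 10 TPM and of the cytosolic ones 12 did. By pathway, the median was highest for ornithine, proline and glutamine enzymes, at 61.3 ± 1.65 TPM over 6 genes. With the length of 1 complete coding transcript per gene, an alternative added after seeing the data, this median was 39.0 ± 1.53 TPM and still the highest. It was lowest for tryptophan enzymes, at 1.59 ± 0.0955 TPM over 4 genes.

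Among the 7 urea cycle genes, the 2 cytosolic enzymes in the middle of the cycle were the highest and the mitochondrial entry enzyme was near 0. Cps1, carbamoyl phosphate synthetase, which fixes ammonia in the first step (chr1:67123026-67231259, plus strand, mm10), had 0.08 and 0.07 TPM in replicates 1 and 2. These levels rested on 15 and 11 counts, and the exact 95% Poisson interval was 0.0448 to 0.132 TPM in replicate 1 and 0.0349 to 0.125 TPM in replicate 2. Such intervals cover counting error only, since the reads were amplified and carried no molecular identifiers to tell molecules apart. Nags, which makes the activator that Cps1 needs, had 7.39 and 6.42 TPM. Otc, ornithine transcarbamylase, which takes the Cps1 product (chrX:10252305-10321024, plus strand), had 15.3 and 14.04 TPM. Both thus stood far above Cps1 in each library: the TPM ratio of Otc to Cps1 was 191 and 200.6, and that of Nags to Cps1 was 92.4 and 91.7.

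Ass1, argininosuccinate synthetase, had 49.4 and 50.1 TPM, and Asl, the lyase that follows it, had 34.5 and 32.7 TPM. Arg1, the cytosolic liver arginase that releases urea (chr10:24915221-24927484, minus strand), had 3.33 and 2.97 TPM from 129 and 116 counts. The last step of the cycle was therefore 15.9 ± 1.44 times lower in TPM than the Ass1 step. Arg2, the mitochondrial arginase of other tissues, had 0.07 TPM in each library from 3 counts each. Exons of Arg2 overlap Vti1b, a gene on the opposite strand with 43.9 and 40.2 TPM, and the use of strand in the counting is not given, so the 3 counts cannot be assigned to either gene with certainty. Exons of 11 of the 48 genes overlap another annotated gene in this way or on the same strand. The ratio of Arg2 to Arg1 from the counts and effective lengths was 0.0208, with a counting interval of 0.00423 to 0.0621, in replicate 1, and 0.0252, with an interval of 0.00512 to 0.0754, in replicate 2.

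The 6 genes around ornithine, proline and glutamine were all detected above 1 TPM, and 4 of them stood above 40 in the deposited TPM, Glul among them, whose level depends on the transcript length used. Oat, ornithine aminotransferase, which draws ornithine away from the cycle, had 81.3 and 78.9 TPM, which was 5.47 ± 0.207 times the level of Otc. Glud1, glutamate dehydrogenase, which releases or captures ammonia, had 122 and 115 TPM. Glul, glutamine synthetase, which captures ammonia in glutamine, had 89.3 and 83.6 TPM. Gls2, the liver glutaminase that frees it again, had 2.31 and 1.53 TPM, the widest spread between the pools among the 40 genes above 1 TPM (SD 28.7% of the mean). The synthetase exceeded the glutaminase by 38.7 and 54.7 times in TPM. Both genes had mixed transcripts, and with the length of 1 complete coding transcript the ratios were 27.3 and 33.6. In proline breakdown, Prodh, the first enzyme, had 8.43 and 7.21 TPM and Aldh4a1, the dehydrogenase after it, had 43.6 and 41.3 TPM.

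The mitochondrial aminotransferases were higher than their cytosolic partners in both pairs. Got2, the mitochondrial aspartate aminotransferase (chr8:95864134-95888547, minus strand), had 187 and 169.6 TPM, the second highest level of the set. Got1, its cytosolic partner, had 23.1 and 20.0 TPM, so that Got2 was 8.27 ± 0.281 times higher. Gpt2, the mitochondrial alanine aminotransferase, had 15.5 and 16.8 TPM against 3.82 and 4.15 TPM for the cytosolic Gpt, a ratio of 4.05 in each library. The ratio depends on the Gpt gene model: it was 7.73 and 7.11 in the tables made with the older GENCODE M4 annotation, and 5.86 and 5.47 with the length of 1 complete coding transcript. Agxt, the alanine-glyoxylate aminotransferase, had 1.83 and 1.42 TPM from 74 and 56 counts.

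In phenylalanine and tyrosine metabolism, the cofactor enzymes were high, the late ring-opening steps were intermediate and the first tyrosine step was near 0. Pcbd1, which helps regenerate tetrahydrobiopterin, had 105 and 103 TPM, and Qdpr, the reductase of the same recycling pathway, had 65.1 and 61.9 TPM. Tat, tyrosine aminotransferase (chr8:109990437-109999803, plus strand), had 0.08 and 0.11 TPM from 6 and 7 counts, with Poisson intervals of 0.0294 to 0.174 and 0.0442 to 0.227 TPM. The 3 genes of the set that act after it were all well above this. Hpd, the dioxygenase, had 4.93 and 5.06 TPM, Hgd, homogentisate dioxygenase, had 16.4 and 14.9 TPM, and Fah, fumarylacetoacetase, which ends the chain, had 14.9 and 13.8 TPM. Hgd was thus 204 and 135 times the level of Tat, a ratio that rests on 6 and 7 Tat counts and was 102.8 and 79.4 with the authors' posterior mean TPM.

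Among the 4 tryptophan genes the first enzyme was again the lowest, while the later ones did not rise step by step. Tdo2, tryptophan dioxygenase (chr3:81957090-81976202, minus strand), had 0.14 and 0.10 TPM from 15 and 4 counts. Kmo, the kynurenine hydroxylase, had 2.40 and 2.71 TPM, and Kynu, kynureninase, had 0.64 and 0.60 TPM. Haao, which makes the precursor of quinolinate, had 6.43 and 5.93 TPM, 45.9 and 59.3 times Tdo2 in the respective library. The Tdo2 counts were placed on 1 long transcript in replicate 1 and mostly on a shorter one in replicate 2. With 1 transcript length for both libraries the ratio was 36.7 and 117, and with the posterior mean TPM it was 20.5 and 25.5.

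Of the 6 serine and histidine genes, 1 reached 10 TPM. Sds, serine dehydratase (chr5:120476526-120483932, plus strand), had no count in either library, where 3 counts would have been 0.121 and 0.131 TPM. Sdsl, the related dehydratase, had 0.90 TPM in each library, at least 7.43-fold and 6.88-fold above those limits for Sds, taken per library. The 4 histidine enzymes had higher levels with each step of the pathway. Hal, histidase, had 1.53 and 1.3 TPM, Uroc1, urocanase, had 3.29 and 3.23 TPM, and Amdhd1, imidazolonepropionase, had 5.75 and 5.30 TPM. Ftcd, which passes the last carbon to folate, had 15.3 and 15.5 TPM, 10.98 ± 1.37 times Hal. Most Hal TPM lay on short transcripts, and with the length of 1 complete coding transcript Ftcd was 58.0 ± 7.22 times Hal.

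In methionine and cysteine metabolism, Mat2a was the highest gene of the whole set and Mat1a one of the lowest. Mat2a encodes the methionine adenosyltransferase of growing and extrahepatic cells (chr6:72432799-72439558, minus strand), and it had 267 and 268 TPM from 20326 and 19125 counts. Mat1a encodes the adult liver enzyme (chr14:41105035-41124412, plus strand) and had 0.45 and 0.46 TPM from 46 and 47 counts. The ratio in TPM was 594 and 583, or 9.20 ± 0.02 on the log2 scale, an error that gives the spread of the libraries only. The counting interval of the ratio was 442 to 806 in replicate 1 and 437 to 792 in replicate 2. As a mean of the libraries it was 476 with the posterior mean TPM and 470 under M4. With the length of 1 complete coding transcript it was 488. All Mat1a counts were placed on the transcript Mat1a-201 in replicate 1 and on Mat1a-203 in replicate 2, so the transcript could not be settled at this depth.

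Mat2a RNA is known to be controlled by hairpins after its stop codon that are recognised by METTL16, an RNA methyltransferase, and by removal of its last intron. The hairpin letters TACAGAGAA were therefore sought on the transcript strand of the GENCODE M21 sequences. They occurred 5 times in Mat2a-201, each time after the stop codon, and the 29 bases around each occurrence are given 5′ to 3′ with the searched letters in capitals and named by their start in the transcript.
Mat2a-201 position 1350: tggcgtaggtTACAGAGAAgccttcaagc
Mat2a-201 position 2134: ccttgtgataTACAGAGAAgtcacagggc
Mat2a-201 position 2313: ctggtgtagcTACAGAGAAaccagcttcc
Mat2a-201 position 2428: atggcgtaagTACAGAGAAgccatcacct
Mat2a-201 position 2647: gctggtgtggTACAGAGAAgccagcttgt
At least 1 occurrence was found in 2.63% of 141767 transcripts, and Mat2a was the 1 gene name of 55341 with a transcript holding 5. No Mat1a transcript held any. A match of letters is a description of the sequence and not evidence of binding in these samples.

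The form of Mat2a that keeps the last intron, Mat2a-202, was present beside the spliced form. The spliced Mat2a-201 held 59.0% and 60.9% of the gene's TPM (158 and 163 TPM), and Mat2a-202 held 18.3% and 17.8% (48.8 and 47.8 TPM, from 5236 and 4756 counts). The deposited posterior SD of the Mat2a-202 count was 2.30% and 2.34% of that count. Mat2a-202 is annotated as coding, so the complete coding share of Mat2a, 78.2% and 79.4%, includes it. Other transcripts, annotated as retained intron, held a further 10.2% and 10.3%, and which intron they keep was not examined. The intron lies at chr6:72434396-72434980 (585 bases, minus strand, mm10). The 2 forms part at the junction shown here 5′ to 3′, where the capitals mark the 15 bases that follow the end of the last shared exon.
Mat2a-201, intron removed: tggggtcattgtcagGGATCTGGATCTGAA
Mat2a-202, intron kept: tggggtcattgtcagGTAAAGATGGTAAAA
Mat2a-204, a coding fragment from the end of the gene, held 11.5% and 10.1%. Of the other methionine genes, Ahcy, which removes S-adenosylhomocysteine, had 56.3 and 54.7 TPM, and Gnmt, the glycine methyltransferase of adult liver, had 4.86 and 5.57 TPM. Bhmt, which remethylates homocysteine with betaine, had 21.3 and 22.1 TPM. In transsulfuration, Cbs, the entry enzyme, had 5.32 and 5.24 TPM, and Cth, which yields cysteine, had 19.7 and 20.8 TPM, 3.83 ± 0.188 times Cbs.

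The 3 glycine cleavage genes were within 7.52-fold of each other. Gcsh, the lipoyl carrier protein, had 78.3 and 71.9 TPM, Gldc, the decarboxylase, had 23.6 and 22.9 TPM, and Amt, the aminomethyltransferase, had 10.9 and 9.12 TPM. The 4 branched-chain genes were the most even group, within 2.07-fold. Bckdha and Bckdhb, the subunits of the first component of the branched-chain ketoacid dehydrogenase, had 18.2 and 17.6 TPM and 18.8 and 20.2 TPM. Their ratio was 0.920 ± 0.0700, and the library values of these genes did not overlap. With the length of 1 complete coding transcript Bckdha was the higher in replicate 2, so the order depends on the length used. Dbt, the core subunit, had 9.27 and 9.59 TPM, and Hibch, a valine pathway hydrolase, had 17.2 and 17.7 TPM.

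**Figure D2:**
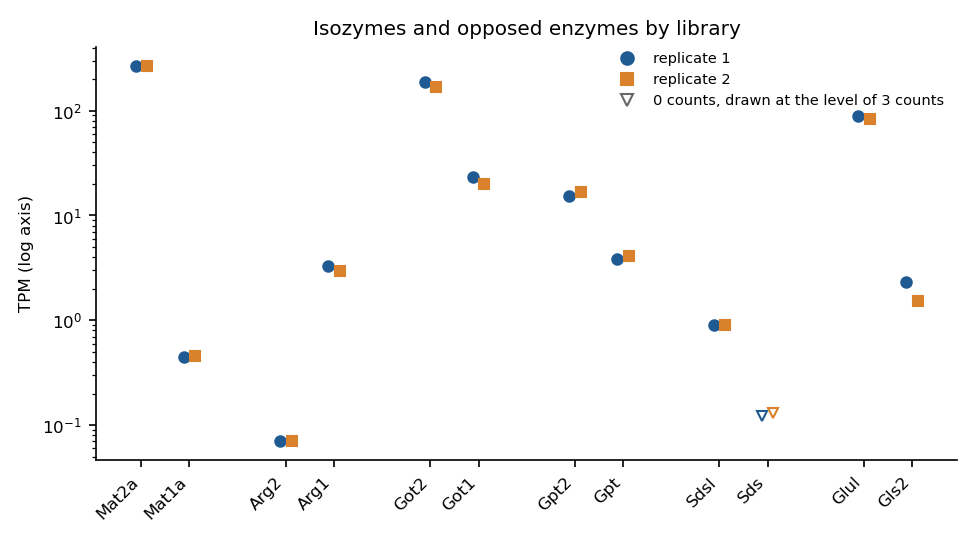
Points give the level of each gene of 6 isozyme or opposed pairs in TPM on a log axis, with replicate 1 and replicate 2 in different symbols; open triangles stand for Sds, which had 0 counts and is drawn at the level of 3 counts. In each of the 6 pairs the 2 libraries of one gene lie clear of the 2 libraries of its partner, and the gap is widest for Mat2a and Mat1a.

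The 2 pools were next compared gene by gene, to see how far the levels above depend on the pool. With expected counts scaled by edgeR's TMM method, a gene was called where the ratio of replicate 2 to replicate 1 was beyond 2-fold and the scaled split lay outside the exact 95% binomial interval of its counts. Of 44 members with a mean count of at least 10, 0 were called, and over all genes 408 of 17343 were, which is 2.35%. That share falls with depth: with a mean count of at least 50, 47 of 13393 genes were called (0.351%), and 0 of 40 members. No p-value was computed, since 2 libraries of 1 group hold no test of a condition. The members' log2 ratios ran from -0.37 for Gls2 to 0.20 for Kmo, with a median of -0.04. Of the 44, 41 lay within 1.25-fold (93.2%, against 80.9% of all genes tested, which were not matched for count), with Gls2, Cps1 and Kynu outside. All 3 had few reads: Gls2 had 108 and 77 counts, Cps1 15 and 11, and Kynu 37 and 27. The 4 members under the count minimum were Tdo2, Tat, Arg2 and Sds. Of the 40 members with a mean of 1 TPM or more, 27 (67.5%) had the higher TPM in replicate 1, against 52.9% of 11957 protein-coding genes at that level. With the ERCC spike-ins as the scale the median log2 ratio of all genes was -0.12 and that of the members -0.16, and still 0 members were called.

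**Figure D3:**
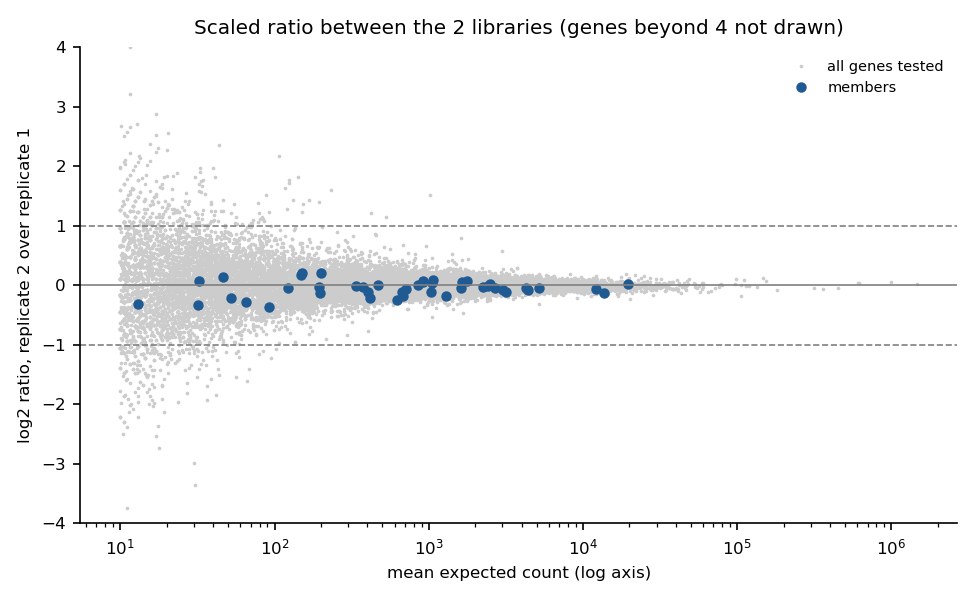
Each point is a gene, with its mean expected count on a log axis and its scaled log2 ratio of replicate 2 over replicate 1; members are drawn in colour over all genes tested, and dashed lines mark 2-fold. All 44 members tested lie between the dashed lines, from -0.37 to 0.20, while many genes with few counts do not. Members under the count minimum are not drawn, among them Tdo2 at -1.68.

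Each library had also been quantified by the authors with the older GENCODE M4 annotation, which shows how far a level rests on the gene models. Among the 40 members at 1 TPM or more under either annotation, 0 changed by over 1.5-fold in log2(TPM + 1) in the same direction in both libraries; 729 of 13235 genes did, which is 5.51%. The median log2 change was -0.05 for members and -0.04 for all genes, and 34 members were lower and 6 higher under M21. Gpt moved most, by 0.61 ± 0.05, from 2.08 and 2.45 TPM under M4 to 3.82 and 4.15 TPM under M21. It passed 1.5-fold in replicate 1 alone, and with a pseudocount of 0.1 TPM in place of 1 it was called in both libraries. Mat2a (0.28) and Haao (0.24) followed, and Bhmt had the lowest value at -0.18.

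The transcript tables showed which RNA forms lay behind the gene levels. Transcripts were put in classes by their GENCODE M21 type, and a coding transcript whose ends are marked incomplete was called a coding fragment. Of the 40 members at 1 TPM or more, 22 had at least 90% of their TPM in complete coding transcripts in both libraries, among them Ass1, Otc, Got2, Glud1, Oat and Ahcy. In 37 the leading transcript was complete coding, and 14 had at least 2 transcripts with 10% or more in both libraries. The 3 exceptions to a complete coding lead were Hal, Gls2 and Glul.

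**Figure D4:**
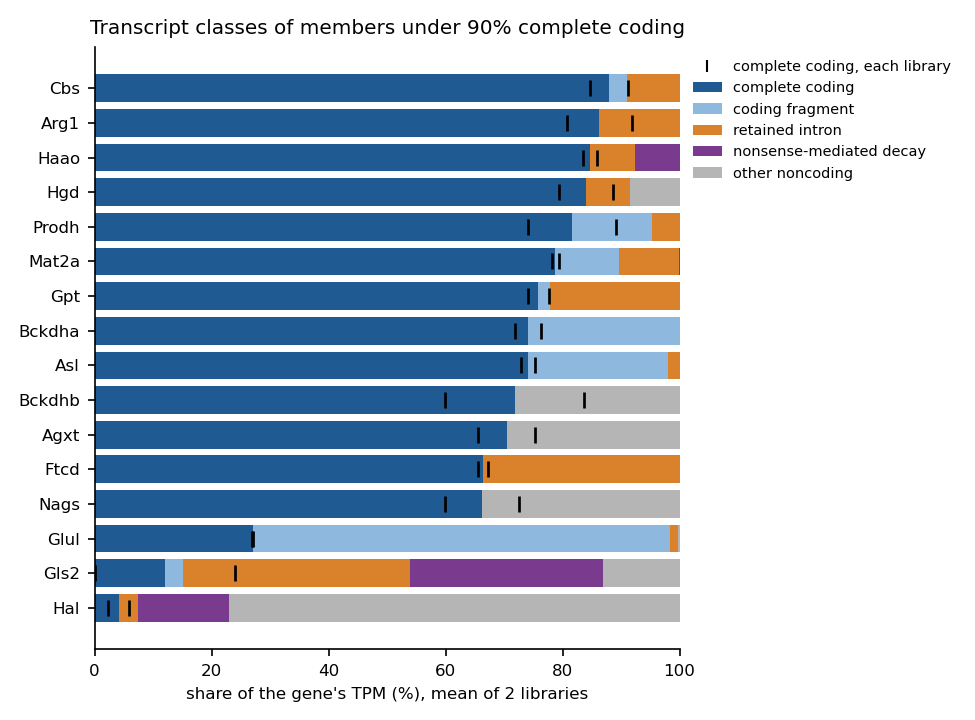
Bars split the TPM of each gene into transcript classes in percent, as the mean of 2 libraries, for the members with under 90% complete coding transcripts; black ticks give the complete coding share in each library. Hal, Gls2 and Glul have the smallest complete coding shares, at 4.09%, 12.01% and 27.0%, and the ticks of Gls2, Bckdhb and Prodh lie furthest apart.

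Hal-204, a noncoding transcript from the end of the histidase gene, held 77.1% of the Hal TPM in each library. All Hal transcripts together had 58 and 46 counts, so these shares rest on few reads. Hal-201, annotated for nonsense-mediated decay, held 10.5% and 20.6%, and the complete coding Hal-202 held 5.88% and 2.29%. By counts Hal-202 held 27.7% and 10.7%, as it is 5319 bases long and Hal-204 is 851. Gls2 had 24.0% complete coding in replicate 1 and none in replicate 2, and its leading transcript was Gls2-207, which keeps an intron, at 31.7 ± 9.67%. Gls2-205, annotated for nonsense-mediated decay, held 10.9% and 20.3%. Exons of Gls2 overlap Spryd4 on the opposite strand, at 21.02 and 20.1 TPM, and its part in the Gls2 counts was not tested. For Glul, the complete coding Glul-201 held 27.0% and 27.1% of the TPM but 66.0% and 65.5% of the counts. The short fragment Glul-202, which starts from another first exon, held 55.4% and 58.6%. The first exons of Glul-201, Glul-202 and Glul-203 lie at chr1:153899944-153900059, chr1:153900606-153900677 and chr1:153901116-153901145 on the plus strand.

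A gene's deposited TPM averages the lengths of its transcripts, so counts placed on short fragments raise it. The alternative named above divided each gene's counts by the effective length of 1 complete coding transcript. The deposited level was more than 1.5 times this value in 3 of the 40 members. Glul had 35.5 ± 1.35 TPM in place of 86.5 ± 4.03, Hal 0.316 ± 0.0345 in place of 1.42 ± 0.163 and Gls2 1.18 ± 0.217 in place of 1.92 ± 0.552. Mat2a had 232 ± 2.64 TPM by this measure and Gpt 2.80 ± 0.232 TPM.

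Ftcd had the clearest second form after Mat2a. The complete coding Ftcd-201 held 67.2% and 65.6% of its TPM, and Ftcd-202, which keeps intron 8 and skips exon 4, held 32.8% and 34.4%. Intron 8 lies at chr10:76583873-76584169 (297 bases, plus strand) and exon 4 at chr10:76579783-76579871. The end of exon 8 and the 15 bases that follow it, in capitals, tell the forms apart.
Ftcd-201, intron removed: ggaacggatcatcgaGTACCTAGTCCCCGA
Ftcd-202, intron kept: ggaacggatcatcgaGTGAGGCCTCCTCAT
Among the other members with mixed transcripts, Asl-205 led Asl with 62.2 ± 2.78%, beside the fragment Asl-201 at 13.97 ± 0.178%. These errors give the spread of the libraries only, and leave out the uncertainty of dividing reads among transcripts. The deposited posterior SD of the Asl-201 count was 32.4% and 36.3% of that count. Bckdha-201 held 74.1 ± 3.17% and the fragment Bckdha-202 the rest of the TPM. Bckdhb-201 held 49.1% and 58.7%, and the noncoding Bckdhb-203 held 16.4% and 40.0%, one of the widest differences between the libraries. Nags-201 held 66.3 ± 8.91% and the noncoding Nags-203 24.1 ± 7.95%. The noncoding Agxt-202 held 34.4% and 24.6% of the TPM beside Agxt-201, and the posterior SD of its count was 38.6% and 63.3% of that count. The remaining mixtures were between complete coding forms: Cbs-202 (68.4 ± 3.77%) with Cbs-201, Hgd-203 (65.5 ± 1.43%) with Hgd-201, Haao-201 (52.9 ± 1.67%) with Haao-202 and Prodh-201 (48.2 ± 12.1%) with Prodh-205.

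Promoter sequence was described for the 36 members matched in a RefSeq table (GRCm38.p6), as the 250 bases before the annotated start. Members at 10 TPM or more had a median of 14.5 CpG dinucleotides in this window (22 genes, 1 to 46), and members under 10 TPM a median of 6 (14 genes, 0 to 21). Over all 32851 promoters of the table the median was 6. At least 10 CpG were found in 14 of the 22, in 3 of the 14, and in 37.8% of all promoters. Across the 36 genes, which share the same 2 libraries and are not replicates, Spearman's rho between CpG count and mean TPM was 0.62. Neither the split at 10 TPM nor the rho was computed over all genes. Whether the relation is particular to these members was therefore not tested. The members without an entry were Asl, Cth, Dbt, Gpt, Arg1, Gls2, Sdsl, Kynu, Mat1a, Cps1, Arg2 and Sds. Of the members under 1 TPM only Tdo2 and Tat had an entry, so the lower group and the rho lack most of the lowest genes. The RefSeq start lay within 50 bases of the GENCODE start in 29 of the 36, and 474 bases from it for Tdo2.

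Windows from 3 genes show this range, printed 5′ to 3′ on the gene's strand with CpG in capitals. Glud1 (chr14:34310477-34310726, plus strand) had the most CpG, 46, and 118 ± 5.01 TPM. Hgd (chr16:37579903-37580152, plus strand) had 1 CpG and 15.6 ± 1.05 TPM, against the general order. Tat (chr8:109990186-109990435, plus strand) had 3 CpG and 0.095 ± 0.0212 TPM.
Glud1: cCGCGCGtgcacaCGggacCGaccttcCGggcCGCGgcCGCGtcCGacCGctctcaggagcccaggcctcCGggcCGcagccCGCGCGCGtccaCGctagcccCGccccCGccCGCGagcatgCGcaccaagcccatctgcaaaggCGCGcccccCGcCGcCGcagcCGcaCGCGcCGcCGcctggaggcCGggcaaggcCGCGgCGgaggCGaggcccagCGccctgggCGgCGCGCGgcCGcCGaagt
Hgd: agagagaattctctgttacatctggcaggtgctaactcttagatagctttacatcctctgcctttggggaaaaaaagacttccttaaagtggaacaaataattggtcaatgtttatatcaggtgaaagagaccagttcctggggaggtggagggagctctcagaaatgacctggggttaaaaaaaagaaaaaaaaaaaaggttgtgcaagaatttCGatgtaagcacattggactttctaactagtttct
Tat: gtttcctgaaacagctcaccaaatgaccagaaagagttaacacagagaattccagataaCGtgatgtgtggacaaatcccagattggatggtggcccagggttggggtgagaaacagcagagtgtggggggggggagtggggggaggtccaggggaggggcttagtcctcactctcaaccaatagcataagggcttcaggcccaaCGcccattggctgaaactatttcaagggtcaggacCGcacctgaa
The letters TATAAA, searched on both strands, were in the window of 7 of the 36 (19.4%; Mat2a, Got2, Pcbd1, Hgd, Ftcd, Hal and Tdo2) and of 12.4% of all promoters. The C/EBP letters TTGCNNAA, also on both strands, were in 3 (8.33%; Qdpr, Hgd and Hal) against 9.56%, and the HNF4 letters CAAAGTCCA in 0 against 0.384%. In Hgd both TATAAA and TTGCNNAA were found, and they do not share bases. Absence says only that these letters are not in the window.

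**Figure D5:**
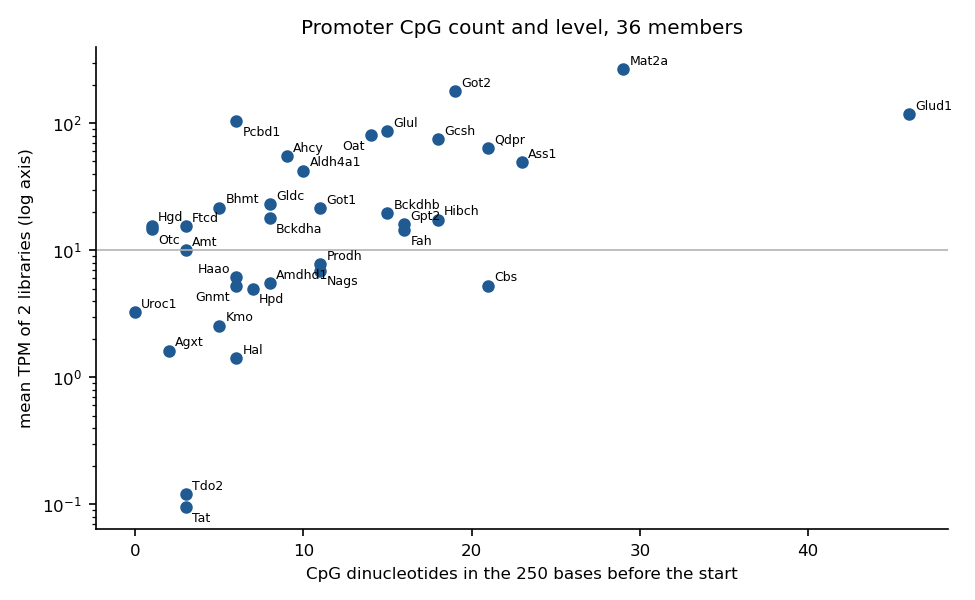
Each point is 1 of 36 members, with the number of CpG dinucleotides in the 250 bases before its annotated start and its mean level of 2 libraries in TPM on a log axis; the line marks 10 TPM. Members with many CpG lie mostly above the line, with Cbs (21 CpG, 5.28 TPM) below it and Hgd and Otc (1 CpG each) above it.

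The other enzymes of these pathways gave a wider view. The 61 further symbols found stood for 62 gene identifiers, since Gcat has 2. Of the 62, 55 reached 1 TPM in both libraries and 43 reached 10 TPM, and their median was 20.3 TPM. The highest were led by amino acid synthesis: Asns, asparagine synthetase, had 359 and 365 TPM, and the serine synthesis enzymes Phgdh and Psat1 had 319 and 291 TPM and 160.2 and 151 TPM. Shmt2, the mitochondrial serine hydroxymethyltransferase, had 155 and 151 TPM, and Dld, the shared dehydrogenase of the glycine and ketoacid complexes, had 93.1 and 91.9 TPM. The 6 lowest were the second Gcat identifier, ENSMUSG00000116378.1 (0.66 and 0.91 TPM), Aspg (0.39 and 0.42), Tdh (0.22 and 0.09), Ddo (0.09 and 0.01), Ido1 (0.04 and 0) and Ido2 (0.01 and 0). The main Gcat gene, ENSMUSG00000006378.15, had 64.7 and 59.0 TPM. Ido1 and Ido2 are dioxygenases that can open tryptophan in place of Tdo2, and Ido1 had 2 counts and 0 and Ido2 1 count and 0 in the respective library.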

How the data were processed

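Gene and transcript quantifications of 2 polyA libraries of embryonic liver were used. The expected counts are as deposited: the authors divided reads among genes and transcripts, so the values need not be whole. The TPM values were made by the authors from the counts and lengths listed per the file headers, with spike-ins in the total. The percent share of each transcript was recomputed from the deposited TPM. The posterior SD, a score deposited by the authors beside each count, describes the uncertainty of that division. The assembly mm10 and the annotations GENCODE M4 and M21 come from notes deposited with the libraries. The aligner, the quantifier and its strand setting were not given in the sources used here.

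The members and gene lists were chosen with earlier results of these data known. Levels were read from the M21 gene tables. All 48 members are named, with the 6 highest (of which 1 is not reported here) and the 6 lowest of the other pathway genes and the transcripts of members above 1 TPM that had 2 or more at 10% in both libraries. One of the 62 further pathway genes listed, Ca5a, was not matched. Counts were rounded and scaled with edgeR 4.0.16 (TMM) in R 4.3.3, with DESeq2 1.42.0 size factors, total counts and spike-ins as alternatives. Intervals are exact 95% intervals, and floors are 3 counts. Entries with bare numbers (26249) and the 96 spike-ins were left out of gene totals. Promoters are from RefSeq (GRCm38.p6) and transcript sequences from GENCODE M21. Python 3.11.15 with pandas 2.3.3 and scipy 1.17.1 was used.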

Additional observations from a re-analysis of the deposited data

How the results depend on the processing

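Results were recomputed with another TPM estimate, the M4 annotation, each library alone, other scalings, other thresholds and other count limits. The length of 1 complete coding transcript was a further setting, added after the data were seen. Of these values 44 stayed within 1 SD or 1.5 times the reported one and 15 did not. For the isozyme log2 ratios, the value from each library alone lies within 1 SD of the mean of both by construction. The median member TPM of each library alone was compared with the SD of the same 2 medians, so its outcome was nearly fixed too. Those values are among the 44 and do not show stability. Without a count filter 1 member, Tdo2, differed between the libraries (15 and 4 counts). Between annotations 1 member, Gpt, was called with a pseudocount of 0.1 TPM, and leaving out a library gave 0 (without replicate 1) to 1 (without replicate 2, Gpt). No paired analysis was possible because there was 1 group.

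On the log2 scale the Mat2a to Mat1a ratio was 8.89 with the authors' posterior mean TPM, 8.88 under M4 and 8.93 with the length of 1 complete coding transcript, against 9.20. Arg2 to Arg1 was -5.11, -5.25 and -5.30 in the same order, against -5.49. Gpt2 to Gpt was 1.98, 2.89 and 2.50, against 2.02. Glul to Gls2 was 4.91 with the posterior mean and 4.92 with the length of 1 transcript, against 5.52. Of 37 ratios and pathway medians, 4 moved by over 1.5 times with that length, 3 with the posterior mean and 1 under M4, in an alternative added after seeing the data. At a share of 20% in place of 10%, 6 members in place of 14 had 2 transcripts. The cause of these shifts was not tested, apart from the lengths used. The ratio of Sdsl to the level of 3 Sds counts was not recomputed. Depth limits the statements on Cps1, Tat, Tdo2, Arg2 and Sds, each with 15 counts or fewer in each library. It also limits the transcript shares of Hal, which had 58 and 46 counts.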
